A study of Mus musculus with 2 samples.

Results

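Bdnf, Ntf3, Ntrk2, Ntrk3 and Ngfr encode brain-derived neurotrophic factor, neurotrophin 3 and the receptors TrkB, TrkC and p75, and their open chromatin was described in the left cerebral cortex of aged mice. The 5 genes were taken by name from the 21884 protein-coding genes of the GENCODE mm10 annotation, and all 5 were found. For each gene the deposited peaks and footprints were read in the gene body with 10 kb on each side and at every annotated transcription start site. A promoter peak is one that lies within 1 kb of a start site. The data are 2 DNase-seq libraries of a single group, left cerebral cortex of male B6CASTF1/J mice (an F1 hybrid of C57BL/6 and CAST) aged 18 to 20 months, with no treatment, mutation or second condition in the labels. DNase-seq cuts accessible DNA in nuclei with the enzyme DNase I, so that open chromatin appears as peaks of cuts, and a footprint is a short stretch inside open chromatin that is cut less. The labels number the libraries as biological replicates 1 and 2 but point both to 1 donor record. Whether they came from separate animals is therefore unclear, and the spread between them may be technical. The tissue holds neurons and glia together, and a peak does not show which of these cells carried it.

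Neurotrophins are secreted as precursors that proteases cut to the mature factor. Mature BDNF binds TrkB and NT-3 binds TrkC, which are receptor tyrosine kinases that signal through adaptors to the MAP kinase, PI3 kinase and phospholipase C pathways, while p75 binds all neurotrophins and their precursors and can signal against the Trk receptors. In the cortex Bdnf is made by excitatory neurons from several alternative promoters, each with its own non-coding first exon spliced to a shared coding exon, and some of these promoters respond to neuronal activity through elements that bind CREB and other factors. TrkB and TrkC are made both as full-length kinases and as truncated forms, and truncated TrkB is the main form of astrocytes.

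Replicate 1 had 73221 peaks in its main, shorter list and 264450 footprints, and replicate 2 had 111105 peaks and 385637 footprints. No read totals entered the work, so the depth of the libraries is not known, and these numbers do not measure it. The signal is the authors' own value for a peak, on a scale they do not describe, and its median over the main peaks was 1.24 in replicate 1 against 0.894 in replicate 2. Over 58995 pairs of peaks that overlapped one to one, the SD of the log2 difference between the libraries was 0.65 (1.57-fold), and this is the replicate error against which differences are read. Multiples of this SD are given for the raw difference. The median log2 difference of replicate 1 over replicate 2, 0.28 for promoter pairs and 0 for distal pairs, was not subtracted. Of the tissue markers, 8 of 8 neuronal genes had a promoter peak in both libraries, and 4 of 5 astrocyte genes and 4 of 5 oligodendrocyte genes had one in each. Microglia had 1 of 4 and endothelium 1 of 3, and none of 3 liver genes or of 5 genes of other regions of the nervous system had one in either library.

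Of the 5 genes, 4 had a promoter peak in each library, but not the same 4. The background share of protein-coding genes with a promoter peak was 60.7% in replicate 1 and 61.2% in replicate 2. Bdnf, Ntrk2 and Ngfr had one in both libraries, where 58.7% of all genes did. Ntrk3 had one in replicate 1 alone and Ntf3 in replicate 2 alone. In the longer peak lists all 5 genes had a promoter peak in both libraries, against 65% and 66% of all genes. The strongest promoter peak was below the median of all genes with one, 3.82 in replicate 1 and 2.88 in replicate 2, for Ntf3, Ntrk3 and Ngfr wherever they had a peak, and above it for Ntrk2 in both. Bdnf lay just above the median in replicate 1 (3.97) and below it in replicate 2 (2.20), but these values belong to different peaks. The strongest peak of replicate 1 had 1.86 in replicate 2, and the strongest of replicate 2 had 1.25 in replicate 1.

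Bdnf, the ligand of TrkB, lies on the plus strand at chr2:109674700-109727007, and its annotated transcripts began at 8 start sites spread over 34683 bp. A peak lay within 1 kb of 5 of them in replicate 1 and of 6 in replicate 2. Over all start sites of protein-coding genes the share was 55% and 55.9%. Within 100 bp of the start site, Bdnf had a peak at 2 sites in replicate 1 and 1 in replicate 2, against 44.8% and 44.3% of all start sites. Bdnf thus had a peak within 1 kb of 62.5% of its sites in replicate 1 and 75% in replicate 2, and the 16 genes with at least 8 start sites had a median of 59% and 62.5%. Within 100 bp, Bdnf had 25% and 12.5% of its sites and these genes a median of 29.2% and 41%. In replicate 2 most peaks near Bdnf start sites stood beside them, and 1 site lay inside a peak. In replicate 1 peaks lay across 2 sites and beside others.

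The start sites fell into 2 clusters and a single late site, and the clusters differed between the libraries. The first cluster holds Bdnf-201, then Bdnf-207, Bdnf-208 and Bdnf-210 together, then Bdnf-206. At Bdnf-201 replicate 1 had no peak closer than 2508 bp, and only 18 bases within 1 kb were listed by the authors at a false discovery rate (FDR) of at most 0.05. Replicate 2 had a weak peak there (signal 0.601, 466 bp away) and 1144 listed bases. The joint site of Bdnf-207, Bdnf-208 and Bdnf-210, 1197 bp downstream, had 286 listed bases and no peak in replicate 1, and 985 listed bases and a peak of 0.834 in replicate 2. Bdnf-206, 2332 bp from the first site, had a peak in both libraries (1.52 and 1.00, 1.26 ± 0.370, SD, n = 2), which began 176 and 117 bp from it. In the main lists replicate 2 thus had a peak near every site of the first cluster, and replicate 1 near its last site alone. The peak near the joint site was also in the longer list of replicate 1, with 0.845. With the same number of strongest peaks taken from each library, 5 Bdnf start sites had a peak within 1 kb in each. The antisense gene Gm45346 overlaps the 5' end of Bdnf and Gm20638 ends just upstream of it. DNase cuts carry no strand, so the peaks there cannot be assigned to one of these genes.

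**Figure D1:**
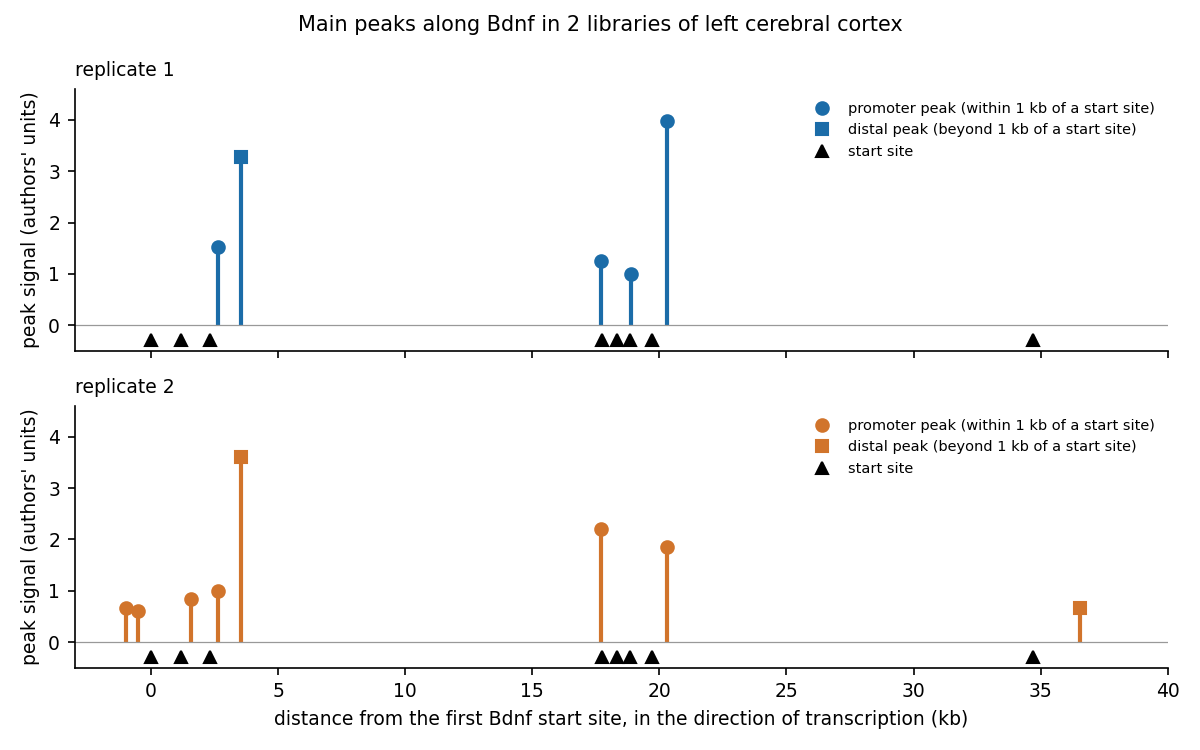
Main peaks along Bdnf in replicate 1 (top) and replicate 2 (bottom), with distance from the first start site in kb on the x axis and the authors' peak signal on the y axis; circles are promoter peaks, squares distal peaks and triangles the 8 start sites. Peaks of both libraries stand near start sites 3, 4 and 7 and in the intron after the first cluster, and the weak peaks at start sites 1 and 2 are in replicate 2.

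The second cluster holds Bdnf-209, Bdnf-211, Bdnf-205 and the joint site of Bdnf-203 and Bdnf-204. Bdnf-209, 17736 bp from the first site, was the Bdnf start site that lay inside a peak in both libraries, with a signal of 1.25 in replicate 1 and 2.20 in replicate 2 (1.73 ± 0.671). Their log2 difference of -0.81 is 1.25 times the SD between the libraries over all one-to-one pairs, and lies opposite to the promoter median of 0.28. All 201 bases within 100 bp of this start site were listed in both libraries. The peak is shown because a site for CREB is known in the rodent Bdnf promoter of this cluster that responds to activity. The annotation used here does not number the promoters, and sites are named by transcript. The peak at chr2:109692301-109692520 on the plus strand of GRCm38.p6 (mm10) reads as follows, with capitals for the bases in footprints of replicate 2.
Bdnf-209 start site: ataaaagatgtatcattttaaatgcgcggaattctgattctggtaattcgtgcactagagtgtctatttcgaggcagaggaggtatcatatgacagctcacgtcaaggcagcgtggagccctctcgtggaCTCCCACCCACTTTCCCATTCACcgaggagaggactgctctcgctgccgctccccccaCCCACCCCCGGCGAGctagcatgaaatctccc
The core TGACG of the CRE (the cAMP response element, full consensus TGACGTCA) was found once, on the minus strand at bases 101 to 105 of the line, 31 bp upstream of the start site. The full CRE was not in this window. The core lay in no footprint of either library. The 2 footprints of replicate 2, 23 and 15 bp wide, lay downstream of it, the first at bases 131 to 153, and replicate 1 had none in the peak. The CRE core was in 28.8% of all promoter peaks in replicate 1 and 28% in replicate 2.

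At Bdnf-205 the order of the libraries was turned round: replicate 1 had a peak across the start site (1.00), and in replicate 2 the nearest peak was 1043 bp away, just outside the promoter window. The longer list of replicate 2 had a peak of 0.547 that overlapped the one of replicate 1. The bases around the start site were listed in both libraries, all 201 within 100 bp. Bdnf-211, between these sites, had a peak 454 bp away in replicate 1 (1.00) and 507 bp away in replicate 2 (2.20), both of them peaks of its neighbours. The last site, Bdnf-202, had no main peak within 1 kb in either library. It had no listed base in replicate 1 and 153 in replicate 2, where a weak peak (0.674) stood 1792 bp downstream.

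By the mean of the libraries, the strongest peaks of Bdnf stood in introns after the clusters. Following the first cluster, a peak at chr2:109678081-109678420 had a signal of 3.28 in replicate 1 and 3.60 in replicate 2 (3.44 ± 0.229), a difference of 0.21 times the SD between the libraries. It lay 1049 bp from the start site of Bdnf-206, so that it counts as distal by a small margin. Following the second cluster, a peak at chr2:109694921-109695120, 452 bp from the site of Bdnf-203 and Bdnf-204, had 3.97 in replicate 1 and 1.86 in replicate 2 (2.91 ± 1.49), which is 1.69 times that SD. In replicate 2 this second peak was below the one across the start site of Bdnf-209 (2.20). Both intronic peaks are shown because they had the highest mean signal of the gene's shared peaks and both held footprints that the libraries share. Capitals mark bases covered by footprints in both libraries, and the first line is the middle 300 bases of its peak, chr2:109678101-109678400.
Bdnf intron after the first cluster: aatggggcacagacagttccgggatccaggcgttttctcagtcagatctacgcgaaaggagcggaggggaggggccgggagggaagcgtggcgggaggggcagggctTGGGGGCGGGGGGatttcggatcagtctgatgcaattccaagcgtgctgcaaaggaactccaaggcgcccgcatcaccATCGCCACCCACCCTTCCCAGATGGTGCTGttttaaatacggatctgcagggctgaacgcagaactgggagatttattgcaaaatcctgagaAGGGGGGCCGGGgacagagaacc
Bdnf intron after the second cluster: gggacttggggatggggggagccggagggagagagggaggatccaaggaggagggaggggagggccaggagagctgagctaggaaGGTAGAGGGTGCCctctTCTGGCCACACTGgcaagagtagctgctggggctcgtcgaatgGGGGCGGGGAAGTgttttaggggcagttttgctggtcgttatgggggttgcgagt
In each intronic peak the SP1 consensus GGGCGG lay once inside a footprint of both libraries, at bases 111 to 116 of the first line and 147 to 152 of the second. SP1 is a general activator at GC-rich promoters. The longest footprint of the first line was 32 bp in replicate 1 and 30 bp in replicate 2. In the second line a footprint of 33 bp in replicate 1 was matched by a pair of 13 bp each in replicate 2. Of all distal peaks, 12.5% and 8.82% held the SP1 consensus in the 300 bases around their middle, and of promoter peaks 61.3% and 54.2%.

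Footprints in the window of Bdnf numbered 18 in replicate 1 and 46 in replicate 2, of which 15 and 35 lay within 1 kb of a start site. Per 100 kb this is 24.9 and 63.6, above 66.7% and 95.5% of the genes of like length. Of the footprints in replicate 2, 25 lay outside its main peaks. Only 7 of 18 and 10 of 46 were covered over at least 0.5 of their width in the other library. That is 38.9% and 21.7% for Bdnf, against 43.8% and 30% for all footprints. Distal peaks numbered 1 and 2 in the window, a density of 1.38 and 2.77 per 100 kb. Among the 6172 genes of 0.5 to 2 times the length of Bdnf, this was below the median (2.00 and 3.64) but within the quartiles. It was above 36.5% and 40.2% of them.

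**Figure D2:**
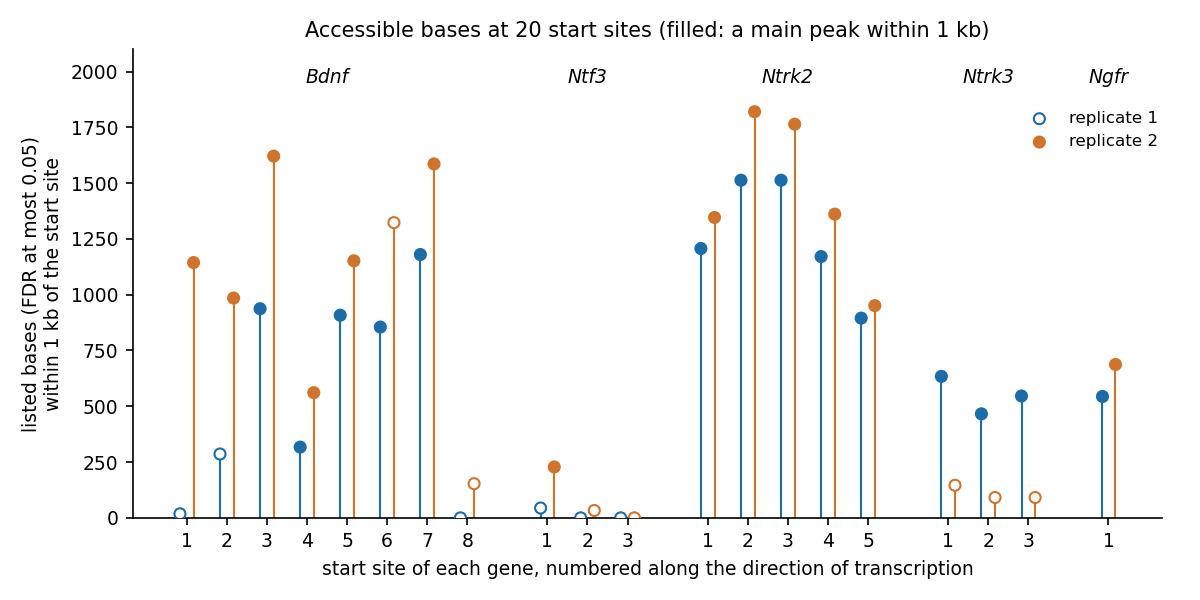
Number of bases within 1 kb of each start site that the authors listed at an FDR of at most 0.05 (y axis), for the 20 start sites of the 5 genes in order of transcription (x axis), in replicate 1 (blue) and replicate 2 (orange); filled points have a main peak within 1 kb. Ntrk2 is high at all 5 sites in both libraries, Bdnf varies from 0 to 1621 bases, and Ntf3 is at most 228.

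Ntf3, the ligand of TrkC, lies on the minus strand at chr6:126101412-126166910 with 3 start sites, and none had a peak within 100 bp. Ntf3-201, the first, had 44 listed bases within 1 kb in replicate 1 and 228 in replicate 2. The start sites Ntf3-202 and Ntf3-203 had no listed base within 1 kb in replicate 1, and 33 and 0 in replicate 2. Over all genes the best start site had a median of 574 listed bases in replicate 1 and 696 in replicate 2, and 34.2% and 32.9% of genes had none. The one promoter peak of Ntf3 decides its call by a few bases: a peak upstream of Ntf3-201 began 1020 bp away in replicate 1 and 971 bp away in replicate 2, on either side of the 1 kb limit. Its signal was 1.15 in replicate 1 and 1.34 in replicate 2 (1.25 ± 0.132), so it did not differ between the libraries beyond their error. The peak is shown because both libraries had the same long footprint in it, of 27 bp and 29 bp. It spans chr6:126167881-126168061 and is printed on the minus strand, with capitals for bases in footprints of both libraries.
Ntf3 upstream region: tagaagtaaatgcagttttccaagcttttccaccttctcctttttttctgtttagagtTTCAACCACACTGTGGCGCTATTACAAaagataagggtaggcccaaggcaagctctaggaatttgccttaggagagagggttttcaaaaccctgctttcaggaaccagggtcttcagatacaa

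The Ntf3 window held 4 distal peaks in replicate 1, with the upstream peak among them, and 7 in replicate 2. In replicate 1 all 4 lay below the median signal of its main peaks (1.24), and in replicate 2 it was 4 of 7 (median 0.894). Per 100 kb the distal peaks were 4.68 and 8.19, above 80.2% and 87.2% of the 5385 genes of like length. With peaks at or above the median signal alone, the density was 0 in replicate 1 and 3.51 in replicate 2. The 2 strongest shared ones had a signal of 0.851 and 1.33 (1.09 ± 0.342), in an intron 3353 bp into the gene, and of 0.680 and 1.17 (0.924 ± 0.345), downstream of the gene's end. Replicate 2 alone had an intronic peak of 1.39 at chr6:126154421-126154600, with a footprint of 33 bp. Each of the 4 shared regions of Ntf3 was higher in replicate 2. Over all shared pairs, 50.2% of distal pairs and 27.4% of promoter pairs were higher in replicate 2.

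Ntrk2, which encodes TrkB, lies on the plus strand at chr13:58806569-59133970 and was the most open of the 5 genes at its start. All 5 start sites had a peak within 1 kb in both libraries and 4 had one within 100 bp. The peak across the first site, of Ntrk2-204 and Ntrk2-207, had a signal of 4.45 in replicate 1 and 3.84 in replicate 2 (4.15 ± 0.436). These lie above 58.5% and 63.7% of all genes with a promoter peak. The peak across Ntrk2-201 and Ntrk2-205 had 3.60 and 3.69 (3.64 ± 0.0668), and that at Ntrk2-208 and Ntrk2-209 had 1.26 and 1.28 (1.27 ± 0.0149). A peak between the first and second, with 1.45, was in the main list of replicate 1 alone. The 3 shared promoter peaks differed between the libraries by at most 0.331 times the SD over all one-to-one pairs. The peak across the first site, at chr13:58806421-58806660, is shown as the strongest shared promoter peak of the 5 genes, on the plus strand with footprint bases shared by the libraries in capitals.
Ntrk2 first start site: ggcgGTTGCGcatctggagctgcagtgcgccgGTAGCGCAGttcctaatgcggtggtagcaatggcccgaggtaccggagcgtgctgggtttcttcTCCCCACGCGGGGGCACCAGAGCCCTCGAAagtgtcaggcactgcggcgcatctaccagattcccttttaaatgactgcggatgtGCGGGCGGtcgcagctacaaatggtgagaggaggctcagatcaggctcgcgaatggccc
The peak held the SP1 consensus in an 8-bp footprint with the same borders in both libraries, at bases 182 to 189. Its longest footprint, of 32 bp in replicate 1 and 31 bp in replicate 2, ended 21 and 23 bp upstream of the start site.

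Away from its start sites Ntrk2 had 9 distal peaks in replicate 1 and 17 in replicate 2. Per 100 kb this is 2.59 and 4.89, close to the middle of the 1157 genes of like length (above 64.1% and 63.2% of them). In all, 23 regions were found in its window, 9 of them in both libraries, 3 in replicate 1 alone and 11 in replicate 2 alone. The strongest of all distal regions of the 5 genes lay in an intron 267381 bp into Ntrk2, at chr13:59073661-59074240, with 3.67 in replicate 1 and 4.86 in replicate 2 (4.27 ± 0.841). It overlaps the antisense gene 4930415C11Rik, and its nearest start site of any gene was 4056 bp away. The second of Ntrk2, at chr13:59092761-59092960, had 2.38 and 2.96 (2.67 ± 0.416). The strongest region of Ntrk2 found in 1 library alone was in replicate 2, at chr13:59094739-59095100, with 1.82. It held 5 footprints in each library although it was not in the main list of replicate 1. The 2 regions of the set that were weakest, 0.211 and 0.297, stood near the 3' end of Ntrk2 in replicate 1, the second in a coding exon.

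The shared distal region of Ntrk2 that came next by the mean of the libraries is named after its sequence was seen. At chr13:59011561-59011820 in an intron, it had a signal of 2.14 in replicate 1 and 2.46 in replicate 2 (2.30 ± 0.225). In replicate 2 the region at chr13:58866261-58866594 was higher (2.84), and in replicate 1 it had 1.29. The region at chr13:59011561-59011820 held the E-box CACGTG 3 times, a palindrome bound by USF and other helix-loop-helix factors. Windows of 300 bases with at least 3 such matches were 0.0188% of all distal peaks in replicate 1 and 0.00952% in replicate 2. The first and second match lay in footprints of both libraries and the third in a footprint of replicate 2. The first overlaps a CRE core. Of all footprints, 0.793% and 0.852% held this E-box. The line gives the whole region on the plus strand with shared footprint bases in capitals, and the matches are at bases 31 to 36, 117 to 122 and 175 to 180.
Ntrk2 intron with E-boxes: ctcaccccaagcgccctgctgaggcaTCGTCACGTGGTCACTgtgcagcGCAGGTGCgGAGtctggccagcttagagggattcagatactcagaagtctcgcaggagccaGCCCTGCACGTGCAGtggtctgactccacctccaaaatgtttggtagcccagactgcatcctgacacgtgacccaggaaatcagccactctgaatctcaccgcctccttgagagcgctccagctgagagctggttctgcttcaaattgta

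Ntrk3, which encodes TrkC, is annotated on the minus strand at chr7:78175959-78738012, the longest of the 5 genes at 562.1 kb. Its 3 start sites in the basic annotation lie within 619 bp of each other, well inside that span and nearer its 5' end than its 3' end. In replicate 1 a peak of 87 bp with a signal of 1.29 lay 53 bp from the first of them. In replicate 2 no main peak was within 1 kb of any, and the longer list of that library had one of 0.948. Listed bases within 1 kb of the first site were 634 in replicate 1 and 146 in replicate 2, and the lowest FDR among them was 0.00024 and 0.031. The peak of replicate 1 lay above 14.1% of the genes with a promoter peak.

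The regions of Ntrk3 lay mainly in its introns. The main lists held 20 distal peaks in replicate 1 and 24 in replicate 2. Per 100 kb this is 3.44 and 4.12, above 82.7% and 57.2% of the 577 genes of like length. Of its 29 regions 27 were in introns, and 16 were in both libraries, with 5 in replicate 1 alone and 8 in replicate 2 alone. That is 76.2% of its peaks in replicate 1 and 66.7% in replicate 2, beside 85.8% and 56.1% of all main peaks. By the mean of the libraries, the 2 strongest shared regions lay upstream of the basic start sites but inside the annotated gene. One at chr7:78596001-78596180, 17593 bp from the nearest of these sites, had 2.36 in replicate 1 and 2.44 in replicate 2 (2.40 ± 0.0568). The other, at chr7:78660881-78661240, had 2.01 and 2.36 (2.18 ± 0.247). Within a library the order differed: the strongest shared region was at chr7:78569001-78569180 in replicate 1 (2.38), and at chr7:78601941-78602200 in replicate 2 (2.61). The strongest region found in 1 library alone, at chr7:78668061-78668300, had 1.83 in replicate 2. Of the 16 shared regions 14 were higher in replicate 2, with a median log2 difference of -0.38, and 13 of the 16 differed by less than 2-fold. Over all 40069 shared distal pairs the median difference was 0, and 50.2% were higher in replicate 2. A transcript outside the basic set, Ntrk3-218, starts 1 bp from a shared region in replicate 1 and 21 bp from it in replicate 2. With all transcripts counted, that region of 1.17 and 1.88 became a promoter peak of Ntrk3 in both libraries.

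**Figure D3:**
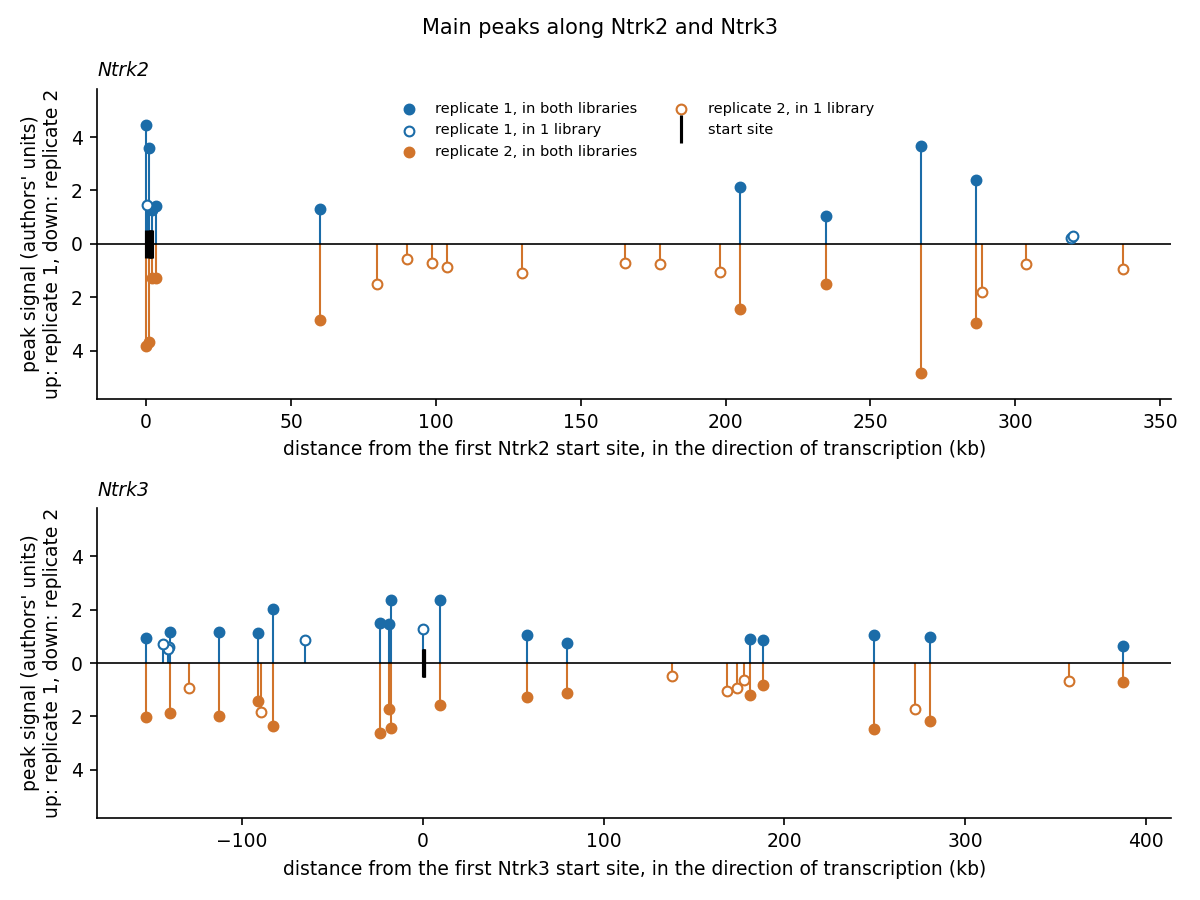
Main peaks along Ntrk2 (top) and Ntrk3 (bottom) by distance from the first start site in kb (x axis), with the authors' peak signal upward for replicate 1 and downward for replicate 2; filled points are regions in both libraries, open points regions in 1 library, and black marks start sites. The highest points of Ntrk2 are at its start sites and 267381 bp into the gene, while those of Ntrk3 lie on both sides of its weak start sites.

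Another 2 intronic regions of Ntrk3 are shown for their sequence beside the one with the highest mean signal, and were picked after the matches were seen. The region at chr7:78569001-78569180, with 2.38 in replicate 1 and 1.58 in replicate 2 (1.98 ± 0.566), held a shared footprint of 31 and 30 bp. It also lies in Gm39038, a transcript annotated within the intron on the same strand. The region at chr7:78498448-78498716, with 0.759 and 1.11 (0.937 ± 0.251), was the one region of the 5 genes with the full CRE consensus TGACGTCA, a match that 0.623% and 0.488% of all distal peaks held. In replicate 1 a footprint of 13 bp covered the CRE, and in replicate 2 a pair of 7 bp each overlapped its ends. All 3 lines are on the minus strand with shared footprint bases in capitals, and the CRE is at bases 146 to 153 of the last.
Ntrk3 intron with the highest mean signal: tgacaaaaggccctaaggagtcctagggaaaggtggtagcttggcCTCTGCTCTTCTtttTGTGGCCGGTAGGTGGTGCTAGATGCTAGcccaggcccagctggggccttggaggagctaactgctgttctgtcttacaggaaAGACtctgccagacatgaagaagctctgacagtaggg
Ntrk3 intron with long footprint: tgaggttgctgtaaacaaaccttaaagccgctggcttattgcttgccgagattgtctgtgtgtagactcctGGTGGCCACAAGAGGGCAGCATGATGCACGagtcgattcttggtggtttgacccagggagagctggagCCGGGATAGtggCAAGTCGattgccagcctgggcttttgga
Ntrk3 intron with CRE: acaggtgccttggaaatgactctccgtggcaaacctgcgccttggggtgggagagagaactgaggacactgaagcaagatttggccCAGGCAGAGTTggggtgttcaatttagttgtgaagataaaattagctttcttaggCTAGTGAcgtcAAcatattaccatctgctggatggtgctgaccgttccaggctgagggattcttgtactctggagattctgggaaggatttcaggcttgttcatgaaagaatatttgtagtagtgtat

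Ngfr, which encodes p75, lies on the minus strand at chr11:95568818-95587735 with a single start site. A peak lay across it in both libraries with a low signal, 1.13 in replicate 1 and 0.661 in replicate 2 (0.898 ± 0.335). These were above only 11.2% and 6.44% of genes with a promoter peak. The peak at chr11:95587521-95587800 is printed on the minus strand with the SP1 consensus in capitals, since 4 matches of it stood in the RefSeq promoter of the gene. Of these, 3 lie in the printed span, which joins the peaks of both libraries, and none of the 3 was inside a footprint of either library. The peak of replicate 1 ended at position 95587740, so the matches at bases 31 to 36 and 40 to 45 of the line lie outside it.
Ngfr start site: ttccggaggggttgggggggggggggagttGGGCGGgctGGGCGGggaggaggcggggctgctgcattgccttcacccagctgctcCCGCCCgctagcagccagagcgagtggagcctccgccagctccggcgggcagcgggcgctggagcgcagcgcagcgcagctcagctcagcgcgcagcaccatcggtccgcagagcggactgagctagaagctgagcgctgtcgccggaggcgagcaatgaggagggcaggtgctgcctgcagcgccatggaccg
A stronger peak of 3.33 in replicate 1 and 1.67 in replicate 2 (2.50 ± 1.17) lay in an intron 1215 bp from the start site, at chr11:95586301-95586520. Another, in a coding exon at chr11:95577861-95578033, had 0.871 and 0.374 (0.622 ± 0.352). All 3 were higher in replicate 1, by 1.20 to 1.88 times the SD between the libraries. Over all shared pairs, 72.6% of promoter pairs and 49.8% of distal pairs were higher in replicate 1. The window held no peak found in 1 library alone. Its 2 distal peaks gave 5.14 per 100 kb in each library, above 76.7% and 65.9% of the 8075 genes of like length. The short gene makes this depend on the flanks: with the gene body alone the density was 10.6 in each library. The intronic peak is printed on the minus strand for its footprint of 31 bp in both libraries, with shared footprint bases in capitals.
Ngfr intron: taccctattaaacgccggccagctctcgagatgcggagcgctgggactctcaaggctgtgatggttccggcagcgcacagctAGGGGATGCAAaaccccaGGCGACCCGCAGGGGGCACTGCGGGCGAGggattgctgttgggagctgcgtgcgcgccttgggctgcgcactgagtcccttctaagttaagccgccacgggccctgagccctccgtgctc

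**Figure D4:**
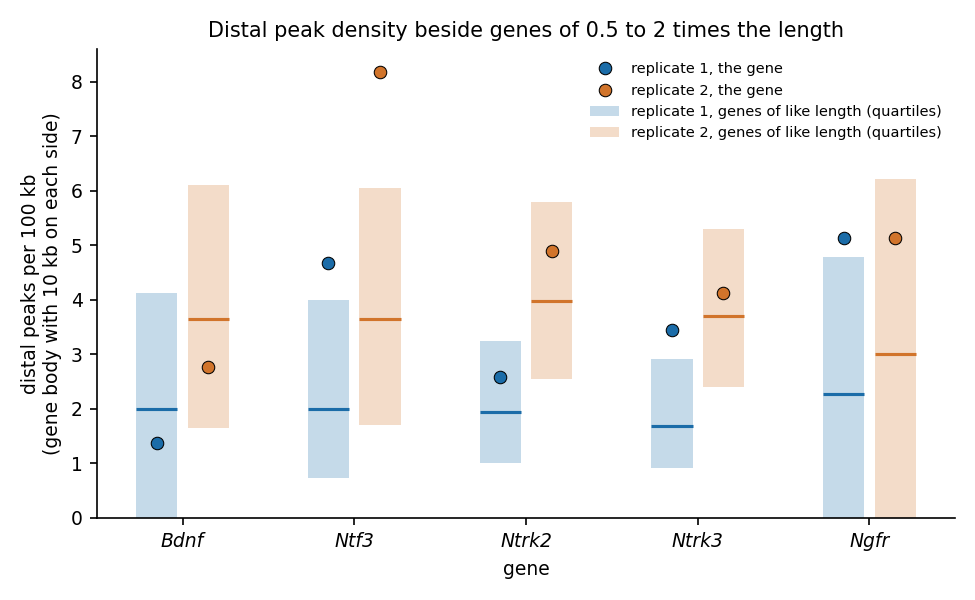
Distal peaks per 100 kb in the window of each gene (points) in replicate 1 (blue) and replicate 2 (orange), with the median (line) and quartiles (bar) over genes of 0.5 to 2 times the length. Ntf3 lies above the upper quartile in both libraries and Bdnf below the median in both.

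Some long footprints of the 5 genes held a sequence like the binding site of CTCF, a factor that marks boundaries and loops of chromatin. The stricter CTCF consensus, with no mismatch allowed, was in 3 of 58 distal regions (5.17%), beside 15.7% and 9% of all distal peaks. In the windows around the regions it was in 2 footprints in replicate 1 and 1 in replicate 2. Of all footprints, in or out of such windows, 3.28% and 2.07% held it. A looser consensus of 14 positions with up to 2 mismatches was chosen after the footprint sequences were seen. It was in 10 of 186 footprints of the 5 genes in replicate 1 and 7 of 282 in replicate 2. Over all footprints the share was higher, 8.62% and 5.66%. Of footprints at least 25 bp wide, 6 of 11 in replicate 1 and 6 of 13 in replicate 2 held such a site. Over all footprints of that width the share was 52.2% and 47.5%, so at this width the genes were near the background. Of these, 6 in replicate 1 and 5 in replicate 2 were footprints that the libraries shared. Their sites are listed on the strand of the consensus in GRCm38.p6, with capitals where the base meets it. They are at chr2:109695014-109695027 (minus strand), chr13:58806520-58806533 (plus), chr13:59073754-59073767 (minus), chr7:78569091-78569104 (minus), chr7:78596102-78596115 (minus) and chr11:95586402-95586415 (minus).
Bdnf intron after the second cluster, site: CCAGaAGAGGGCAC
Ntrk2 first start site, site: CCACgcGGGGGCAC
Ntrk2 strongest distal region, site: CCAGCAGGGGtCtG
Ntrk3 intron with long footprint, site: CCACaAGAGGGCAG
Ntrk3 intron with the highest mean signal, site: CCgGTAGGTGGtGC
Ngfr intron, site: CCcGCAGGGGGCAC
The long footprint of the Ntf3 upstream region had 3 mismatches to this consensus in both libraries, and that of the first Bdnf intron 4.

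Among the other consensus sequences, SP1, the CRE core and RFX were each in 11 to 13 of the 58 distal regions of the 5 genes. These shares were above those of all distal peaks. So were those of the E-box, MEF2 and the full CRE, in 5, 4 and 1 of 58 regions. The counts are small, and no difference was tested. AP-1 and NFI were near or below the share of all distal peaks. SP1 was in 8 of 14 promoter regions (57.1%), beside 61.3% and 54.2% of all promoter peaks. The CRE core was in 3 of 14 promoter regions (21.4%), beside 28.8% and 28%, and RFX in 0 of 14, beside 12.8% and 13%. In 58 distal regions the CRE core was in 22.4%, beside 13.8% and 13.1% of all distal peaks, and SP1 in 22.4%, beside 12.5% and 8.82%. The AP-1 consensus TGANTCA, bound by Fos and Jun, was in 17.2%, beside 17.2% and 22%. The single site TTGGCA of NFI, a family active in astrocytes, was in 22.4%, beside 22.3% and 23.8%. The single site GTTGCC of RFX was in 19%, beside 12.9% and 12.8%, and the MEF2 pattern in 6.9%, beside 4.07% and 5.8%. The E-box was in 8.62% of the distal regions, beside 5.87% and 5.01%. The EGR consensus GCGTGGGCG and the paired NFI site were in no region of the 5 genes. Matches were sought on both strands in the 300 bases around the middle of a peak. In the RefSeq promoters (GRCm38.p6, 250 bases before to 50 after a start), 11 sequences matched Bdnf (7), Ntf3 (2), Ntrk2 (1) and Ngfr (1). Of 32851 RefSeq promoters 35.7% held SP1 and 20.8% the CRE core.

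Taking the 5 genes as a set, their windows held 72 regions, of which 36 were in both libraries, 9 in replicate 1 alone and 27 in replicate 2 alone. The shared share was 80.4% of their peaks in replicate 1 and 57.1% in replicate 2, near the 85.8% and 56.1% of all main peaks, and replicate 2 has the longer list. Introns held 52 of them, exons 13 and the flanks 7. Of the 9 regions of replicate 1 alone, 4 had a peak in the longer list of replicate 2, and of the 27 of replicate 2 alone, 13 had one in that of replicate 1. Of the 36 shared regions 30 differed by less than 2-fold, and over all shared pairs 86.9% did. Among the 28 shared distal regions 23 were higher in replicate 2, with a median log2 difference of -0.34, where all shared distal pairs had a median of 0. The shared promoter regions were higher in replicate 1 for 4 and in replicate 2 for 4, with a median of 0.10, and over all 16601 shared promoter pairs the median was 0.28. The cause of this difference between the libraries was not tested.

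**Figure D5:**
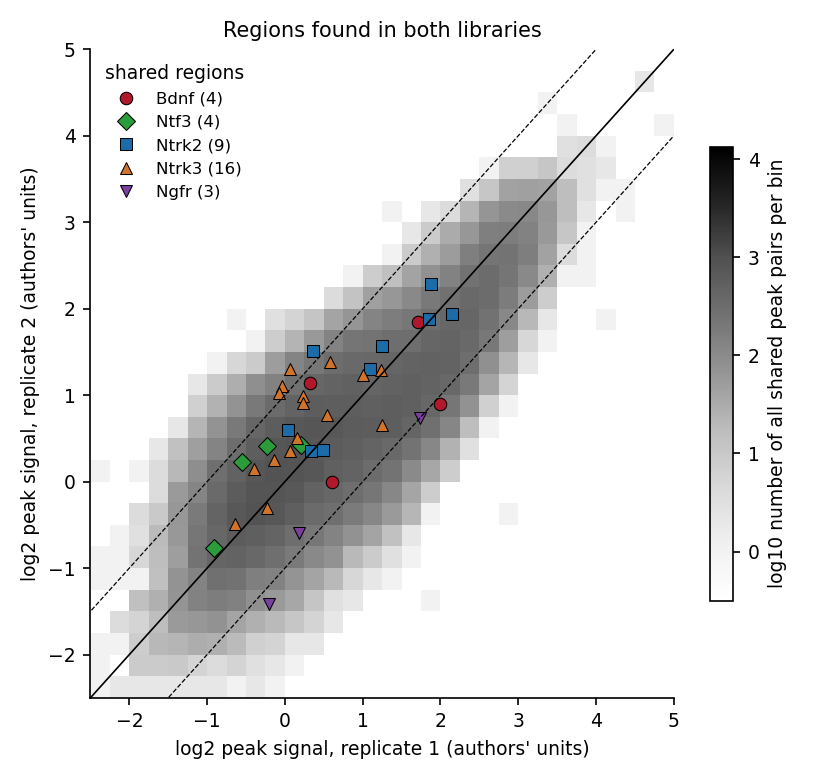
Log2 peak signal of the 36 regions found in both libraries, replicate 1 on the x axis and replicate 2 on the y axis, over the density of all shared peak pairs (grey); the solid line marks equal signal and the dashed lines a 2-fold difference. Most Ntrk3 regions lie above the solid line and the 3 Ngfr regions below it.

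Most genes of the wider neurotrophin pathway had a promoter peak. The list of 57 genes was chosen by textbook roles, with earlier results of these data known. Of these, 51 had a promoter peak in each library, the same 51 (89.5%), beside 60.7% and 61.2% of all genes. Of the 3 further ligand and receptor genes on the list, 1 had one in both libraries (33.3%). Ntf5, which encodes neurotrophin 4, a further ligand of TrkB, had no promoter peak in either library. All 12 listed Trk adaptors and all 6 listed partners of p75 had one in both libraries. So did the 4 listed genes of the sortilin family, whose proteins sort neurotrophins and bind their precursors. Of the processing proteases 6 of 8 had one. Plg, the precursor of plasmin, and Mmp9, both of which can cut the BDNF precursor outside the cell, had none. In the kinase cascades 10 of 11 had one, with Akt1 as the exception in the main lists. Akt1 had one in the longer list of both libraries. Of 13 regulators of Bdnf transcription 12 had one, and Nfatc4 did not.

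Among the strongest promoters of the pathway were those of Map2k1, a MAP kinase kinase (12.9 in replicate 1 and 9.81 in replicate 2, 11.3 ± 2.16), and Creb1, the activator that binds the CRE (9.14 and 6.41, 7.78 ± 1.94). Hras, a small GTPase upstream of the MAP kinases, had 7.74 and 5.79 (6.76 ± 1.38). Map2k1 was the highest of the 51 genes in both libraries, and Creb1 and Hras lay within the spread of each other. The median strongest promoter signal over the 51 genes was 3.46 in replicate 1 and 2.90 in replicate 2, near that of all genes with a promoter peak (3.82 and 2.88). Of the 5 neurotrophin and receptor genes only Ntrk2 exceeded it in both libraries.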

How the data were processed

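The authors deposited, for each library, 2 peak lists with a signal per peak, a footprint list and the bases whose q-value (false discovery rate) was at most 0.05, on mm10 per the deposited notes. Peaks and footprints were called in each library separately from its filtered alignments, per those notes. For the aligner, caller, versions, thresholds and the scaling of the signal, the answer is not given in the sources used here. A constant value fills the score of the deposited footprint lists, which is no measurement. A reference built from C57BL/6J can miss peaks on diverged CAST alleles.

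The shorter list of each library was the main one. Start sites of one gene closer than 100 bp were merged, using the GENCODE M21 basic annotation. Distal means further than 1 kb from any annotated start site, and a shared peak overlapped the other library by at least 1 bp. Genes of like length had 0.5 to 2 times the length. With 1 group and 2 libraries no test was run and no p-value is given. Sums, overlaps and consensus matches used python 3.11.15, numpy 2.4.6, pandas 2.3.3 and pysam 0.24.0 (samtools 1.23.1), were tested on simulated data, and figures used matplotlib 3.10.9.

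The genes, the list of 57 pathway genes and the markers were chosen with earlier results of these data known. Named distal peaks are, per gene, the 2 strongest shared by both libraries and the strongest in a single library, and named pathway genes are those with no promoter peak and the 5 strongest, with exceptions stated; some of these genes and a sequence are not reported here. The relaxed CTCF consensus was added after the sequences were seen. Alternatives varied the peak list, the signal threshold, the list length, the windows, the merging of start sites, the annotation, the overlap rules and the libraries.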

Additional observations from a re-analysis of the deposited data

How the results depend on the processing

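Each count is given as the mean of the 2 libraries. The distal peaks in the 5 windows, 44 in the main lists, numbered 89 with the longer lists and 24 with peaks at or above the median signal of each library. The footprints, 234 in all, numbered 138 when only those inside a main peak were counted and 72.5 when at least 0.5 of their width had to be covered in the other library. In each of these the cause is the construction of the alternative, which adds or removes calls. The other 42 of 46 alternatives for the counts and the shared share stayed within 1.5 times the main count or within 1 SD. For the densities, promoter signals and CTCF matches of single genes, 15 of 49 alternatives moved the value further than that. The 49 include those that leave out a library, which could not move a density or signal. Each of 2 values always lies within 1 SD of their mean. With the longer lists the distal density rose for all 5 genes, for Ntf3 to 12.3 per 100 kb, against 6.43 in the main lists. With peaks at or above the median signal it was 1.75 for Ntf3, 2.06 for Ntrk3 (main 3.78) and 2.57 for Ngfr (main 5.14). With 50 kb on each side it was 3.93 for Ntf3, and with the gene body alone 10.6 for Ngfr. CTCF matches in footprints numbered 1.5 with the strict and 8.5 with the looser consensus. Leaving out a library gave 4 to 4 genes with a promoter peak, 5 to 6 Bdnf start sites with one, 36 to 52 distal peaks, 186 to 282 footprints and 51 to 51 pathway genes. The genes with a promoter peak ranged from 3 (peaks at or above the median signal) to 5 (longer lists). No paired analysis was possible because the design has a single group. How far depth limits the weak calls cannot be given without read totals.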
